A study of Mus musculus with 6 samples.

Results

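The genes described here are 10 components of inflammatory cell death, covering inflammasomes, pyroptosis and necroptosis: Nlrp3, Aim2, Pycard, Casp1, Casp4, Gsdmd, Zbp1, Ripk3, Mlkl and Casp8. They were taken as all probe sets that the array annotation assigns to one of these genes alone, which gave 13 probe sets, out of 18193 genes with such a probe set in all. Each gene is led by its probe set with the highest mean over the 6 arrays. Expression was measured with Affymetrix mouse arrays in whole colon of C57BL/6 mice aged 6 to 8 weeks, 1 array per mouse. The 3 Pparg-deficient mice were PPAR g fl/fl with Lysozyme M cre+, so that the floxed gene is removed in cells using the lysozyme M promoter, chiefly macrophages and neutrophils. The 3 control mice were littermates with the same floxed alleles and Lysozyme M cre-. All 6 mice had 2.5% dextran sodium sulfate (DSS) in the drinking water, which injures the colonic epithelium, and tissue was taken on day 7, so no group without colitis is included. Only the deficient mice carried Cre, whose own effects cannot be told apart from those of losing PPAR gamma.

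An inflammasome is a protein platform that forms when a sensor such as NLRP3 or AIM2 meets a danger signal or foreign DNA. It recruits the adaptor ASC, the product of Pycard, and through it caspase-1, which matures the cytokines IL-1 beta and IL-18 and cleaves gasdermin D into a membrane pore, a lytic death called pyroptosis. Necroptosis is a separate lytic death in which RIPK3, engaged by RIPK1 or by the nucleic acid sensor ZBP1, phosphorylates MLKL, which then breaks the plasma membrane. Caspase-8 restrains necroptosis, and intestinal epithelium that lacks it is prone to this form of death.

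Among the 9 genes tested, the necroptosis kinase Ripk3 was the one whose lead probe set separated the genotypes, with a log2 difference of 1.14, and its activator gene Zbp1 differed by 1.19 with overlapping groups, while Casp1 and Pycard were lower by less than the spread within groups. None of the 10 was called at a limma adjusted p under 0.05 (Benjamini-Hochberg over all 10490 genes tested), and 0% of all genes were, with a smallest adjusted p of 0.536. At an unadjusted limma p under 0.05 there were 783 genes, or 7.46%. The differences below are therefore measured values with their errors and not calls. Of the 10 genes, 9 passed the filter on low values (above log2 4 on at least 3 of 6 arrays). Among these 9, 7 were higher and 2 lower in deficient colon, with a median log2 difference of 0.54, where 5985 of all 10490 genes were higher, with a median of 0.06. One of the 9, Ripk3, had an unadjusted p under 0.05, beside 5.1% of all genes that were higher at that p. It was also the one gene whose groups did not overlap, beside 9.36% of all genes with deficient above control, so 1 of 9 was near the background on both counts.

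The arrays differed in tissue profile within each genotype. Apoa1, an apolipoprotein of small intestinal enterocytes, stood at log2 15.23 on deficient replicate 3 and 15.46 on control replicate 1, and between 3.82 and 7.38 on the other 4 arrays. Car1, a carbonic anhydrase of colonocytes, stood at 7.02 and 2.83 on the same pair against 13.60 to 15.32 elsewhere. The colon label was thus not matched by this marker there. Among other colon markers, Aqp8 and Hoxa10 were also lowest on that pair. Car4, at 13.37 and 11.02 there, and Slc26a3, at 10.32 and 11.05, did not follow this split. Each genotype held 1 array with such small intestine genes, and results are given without and between them. Epithelial markers had means over 8 genes of 13.27 to 13.44 in deficient and 13.18 to 13.79 in control samples. Of these, Vil1 and Krt20 were highest on the array with small intestine genes in each group. Pparg itself averaged 7.05 ± 2.53 in deficient and 8.24 ± 2.57 in control samples (SD, n = 3 each), which does not check the deletion in a tissue where most cells do not use Cre. Lyz2, the lysozyme gene that holds Cre, averaged 7.81 ± 2.25 in deficient and 12.10 ± 0.27 in control samples. Xist, which is transcribed from the silenced X chromosome of females, was detected on control replicate 2 alone.

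**Figure D1:**
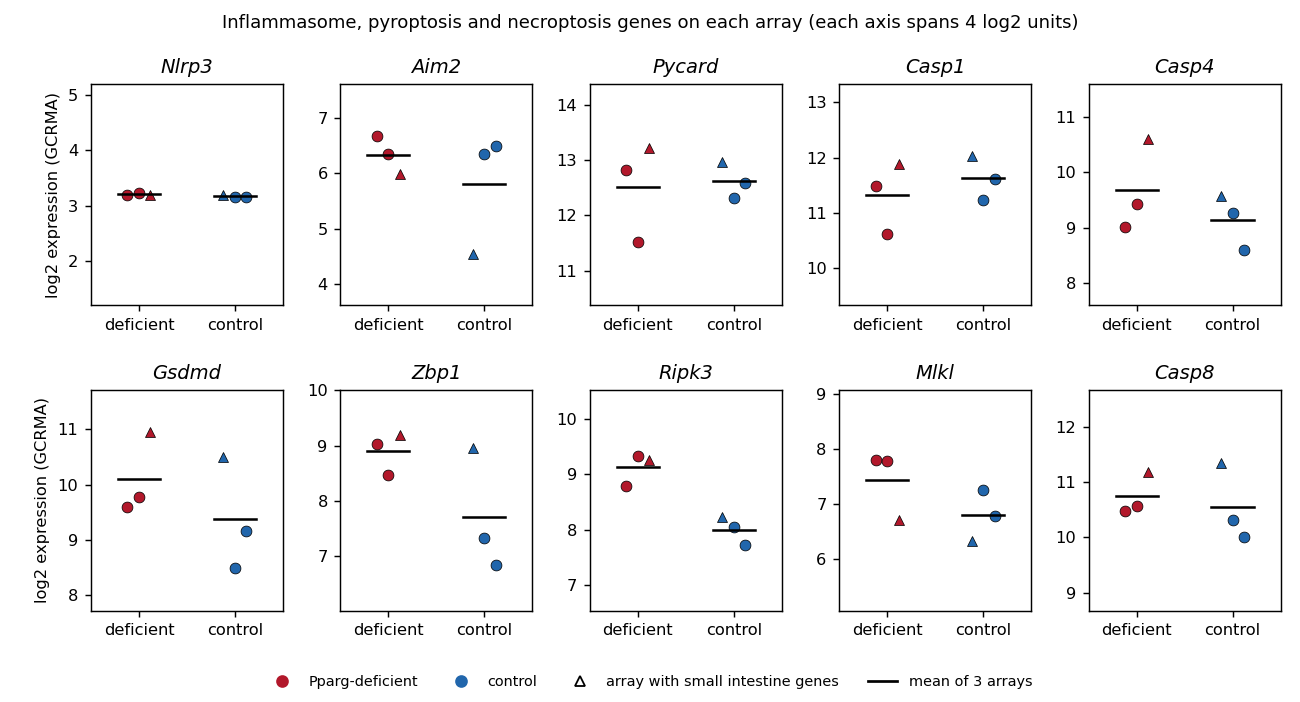
Log2 expression of the lead probe set of each of the 10 genes on the 3 Pparg-deficient and 3 control arrays (points, with the mean of 3 as a line). Triangles mark the 2 arrays with small intestine genes. Each axis spans 4 log2 units, and Ripk3 is the one gene whose groups do not overlap, at 8.80 to 9.34 in deficient and 7.73 to 8.23 in control samples.

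Ripk3 encodes the kinase that commits a cell to necroptosis. Because it separated the groups, the 250 bases before its RefSeq start (GRCm38.p6, chr14:55788858-55789107, minus strand) are shown, with those of its substrate gene Mlkl (chr8:111338206-111338455, minus strand) and of Casp4 (chr9:5308599-5308848, plus strand), which carries the motif matches printed in capitals.
Ripk3: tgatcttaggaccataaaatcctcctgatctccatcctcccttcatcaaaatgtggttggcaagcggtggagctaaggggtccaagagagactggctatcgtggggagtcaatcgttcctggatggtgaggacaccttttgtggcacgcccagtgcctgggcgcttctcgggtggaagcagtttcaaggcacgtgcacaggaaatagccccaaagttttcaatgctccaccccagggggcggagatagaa
Mlkl: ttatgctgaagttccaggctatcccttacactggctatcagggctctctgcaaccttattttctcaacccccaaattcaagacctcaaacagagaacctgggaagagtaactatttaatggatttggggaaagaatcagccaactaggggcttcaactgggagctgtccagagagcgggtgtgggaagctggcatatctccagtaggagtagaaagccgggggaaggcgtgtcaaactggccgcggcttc
Casp4: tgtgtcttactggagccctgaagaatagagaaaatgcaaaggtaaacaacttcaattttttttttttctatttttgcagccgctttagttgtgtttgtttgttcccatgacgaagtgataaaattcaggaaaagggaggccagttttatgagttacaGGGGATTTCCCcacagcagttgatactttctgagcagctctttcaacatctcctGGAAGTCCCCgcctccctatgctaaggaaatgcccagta
Both strands were searched for an interferon-stimulated response element (a pair of GAAA boxes 2 bases apart), a gamma-activated site (TTC and GAA, 3 bases apart), a direct repeat bound by PPAR with RXR (a pair of AGGTCA boxes 1 base apart) and the NF-kappaB consensus motif. Of 32851 mouse promoter windows of the same length, 2.98%, 7.02%, 0.0335% and 7.25% held a match, in that order. Promoter entries were found for 8 of the 10 genes, in 10 windows, and none of these held the first 3 motifs. The windows of Mlkl, Casp8 and Aim2, and 1 of 2 for Nlrp3, lie inside the annotated span of the gene. For Mlkl that span reaches to chr8:111338479. Sequence before the outermost end of the Mlkl, Casp8 and Aim2 spans was not searched. The NF-kappaB motif matched in 3 windows, namely both overlapping Casp4 windows and 1 of 2 for Nlrp3. In the Casp4 sequence above the capitals mark 2 overlapping matches on the plus strand and 1 elsewhere on the minus strand. Of the overlapping matches, GGGATTTCCC also fits the motif on the minus strand and was counted once. A match describes letters in a window and is no evidence of binding, and neither the Ripk3 nor the Mlkl window had any.

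Ripk3 (1448449_at) read 8.80, 9.34 and 9.27 on the deficient arrays, against 8.23, 8.04 and 7.73 on the control arrays. Every deficient value lay above every control value. The mean was 9.14 ± 0.29 in deficient and 8.0 ± 0.25 in control samples (SD, n = 3 each). The log2 difference was 1.14 (standard error 0.23), or 2.20-fold. Its limma unadjusted p was 0.00276, the rank 37 among 10490 genes, and its adjusted p was 0.659. The difference was 1.19 among the 4 arrays without small intestine genes and 1.04 between the 2 arrays with them. Leaving out any 1 array kept it between 1.0 and 1.3. It was therefore above 1 log2 unit within both tissue profiles.

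Zbp1, whose product senses left-handed nucleic acid and activates RIPK3, was measured by 2 probe sets. The brighter one (1429947_a_at) read 9.03, 8.46 and 9.19 on the deficient arrays, against 8.96, 7.33 and 6.84 on the control arrays. The groups overlapped through control replicate 1, the control array with small intestine genes. Means were 8.90 ± 0.39 in deficient and 7.71 ± 1.11 in control samples, which differ by 1.19 with a 95% interval of -0.23 to 2.61 and a limma adjusted p of 0.699. The other Zbp1 probe set (1419604_at) read 8.10, 7.85 and 7.91 on the deficient arrays, against 7.31, 5.61 and 6.12 on the control arrays. There the groups did not overlap, beside 8.51% of all probe sets with deficient above control, and the log2 difference was 1.61. In a fit of all 17024 probe sets on their own, its unadjusted limma p was 0.0111 and its adjusted p was 0.679. Among all probe sets 4.71% were higher at an unadjusted p under 0.05. Both Zbp1 probe sets differed more among the 4 arrays without small intestine genes, by 1.66 and 2.11, than between the 2 arrays with them, by 0.24 and 0.60. Leaving out 1 array moved the difference of the brighter Zbp1 probe set between 0.75, without control replicate 3, and 1.81, without control replicate 1. Whether the genotype difference itself differs between the tissue profiles was not tested.

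Mlkl (1429570_at), the pore-forming executor of necroptosis, read 7.80, 7.77 and 6.72 on the deficient arrays, against 6.34, 7.26 and 6.78 on the control arrays. It was low on the array with small intestine genes in each group, and the groups overlapped. The log2 difference was 0.64 with a 95% interval of -0.33 to 1.60 and a limma adjusted p of 0.734. It was 0.99 without deficient replicate 3 and 0.41 without control replicate 1. Casp8 (1424552_at), the protease that holds RIPK3 in check and also starts apoptosis, read 10.48, 10.56 and 11.19 on the deficient arrays, against 11.35, 10.32 and 9.998 on the control arrays. Its log2 difference was 0.19 (95% interval -0.82 to 1.19), and its sign turned without deficient replicate 3, at -0.035, and without control replicate 3, at -0.092. The opponent of necroptosis therefore differed by less than the spread within groups.

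Among the inflammasome genes, neither sensor separated the genotypes. Nlrp3 (1425412_at), the sensor of membrane damage and crystals, lay between 3.20 and 3.23 on the deficient arrays and between 3.16 and 3.20 on the control arrays. It was under log2 4 on all 6 arrays, so it did not enter the test and its level in this tissue was not resolved. Aim2 (1426619_at), the sensor of cytosolic DNA, read 6.67, 6.36 and 5.98 on the deficient arrays, against 4.55, 6.36 and 6.49 on the control arrays. The difference of 0.54 rested on control replicate 1, since without that array it was -0.087. Among the 4 arrays without small intestine genes Aim2 differed by 0.09.

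The adaptor Pycard and the inflammatory caspase genes Casp1 and Casp4 had overlapping groups, with differences in both directions. Pycard (1417346_at) read 12.82, 11.52 and 13.21 on the deficient arrays, against 12.97, 12.30 and 12.59 on the control arrays. The log2 difference was -0.10 (95% interval -1.26 to 1.06), and its other measured probe set (1417347_at) gave -0.34 with overlapping groups, while a further one (1446926_at) stayed under log2 4. Casp1 (1449265_at) read 11.49, 10.62 and 11.89 on the deficient arrays, against 12.04, 11.23 and 11.62 on the control arrays. Its log2 difference was -0.30 (95% interval -1.26 to 0.66). Deficient replicate 2 had the lowest value of both Pycard and Casp1, and without it their differences were 0.40 and 0.062. The interval of either gene leaves room for a change of over 1 log2 unit downward, so equal expression was not shown.

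Casp4 (1449591_at), the mouse caspase-11 gene beside Casp1 in the genome, whose product binds lipopolysaccharide inside cells and opens the non-canonical route to pyroptosis, read 9.02, 9.42 and 10.60 on the deficient arrays, against 9.56, 9.27 and 8.59 on the control arrays. The groups overlapped, with a log2 difference of 0.54 (95% interval -0.64 to 1.71) and a limma adjusted p of 0.802. Without deficient replicate 3, which held the highest value, the difference was 0.08, and it was 0.26 without control replicate 3 and 0.87 without deficient replicate 1. Gsdmd (1428767_at), the gene of the pyroptotic pore protein, read 9.60, 9.78 and 10.94 on the deficient arrays, against 10.51, 8.49 and 9.16 on the control arrays. In each group its highest value was on the array with small intestine genes. The log2 difference was 0.72 (95% interval -0.80 to 2.24, limma adjusted p 0.795), 0.86 among the 4 arrays without those genes and 0.44 between the 2 arrays with them. Without control replicate 1 it was 1.28, without control replicate 2 it was 0.28 and without deficient replicate 3 it was 0.30.

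**Figure D2:**
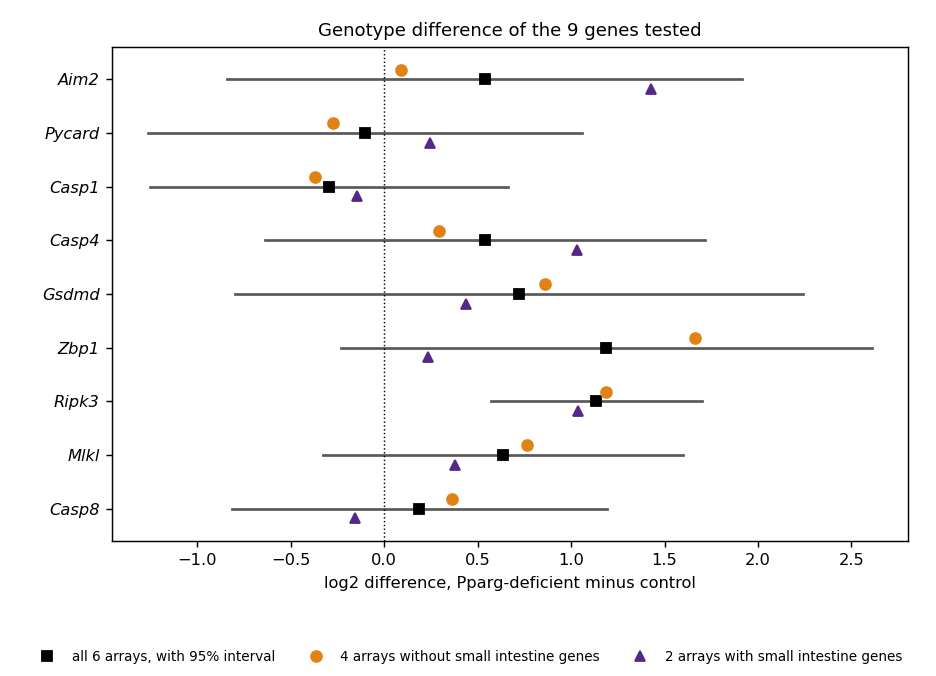
Log2 difference, Pparg-deficient minus control, for the 9 genes tested. Squares and lines give all 6 arrays with the 95% interval from limma, circles the 4 arrays without small intestine genes and triangles the 2 arrays with them. The interval of Ripk3, 0.57 to 1.70, is the one that does not include 0, and its 3 estimates lie between 1.04 and 1.19.

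For 7 of the 10 genes the means differed more between the tissue profiles of the arrays than between the genotypes. Gsdmd averaged 10.73 on the 2 arrays with small intestine genes and 9.26 on the other 4, a difference of 1.47. Casp4 was higher there by 1.01, Casp8 by 0.93, Pycard by 0.78 and Casp1 by 0.72. Aim2 and Mlkl ran the other way, at -1.20 and -0.87. Ripk3 differed by 0.27 and Zbp1 by 1.16 along the profile, less than their genotype differences of 1.14 and 1.19. For the other Zbp1 probe set these values were 0.69 and 1.61. These values describe arrays that were set apart by their own expression and were not tested.

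Without those 2 arrays the median difference of the 9 genes was 0.36. Ripk3, Zbp1, Gsdmd, Mlkl and Casp8 then had both deficient values above both control values, which is 5 of 9 genes beside 30.5% of all genes higher without overlap in that comparison. At an unadjusted limma p under 0.05 there were 4 of 9, namely Ripk3, Zbp1, Gsdmd and Mlkl, beside 9% of all genes that were higher. With the tissue profile as a block over all 6 arrays these 4 genes again had a p under 0.05, beside 8.11%, and their adjusted limma p ran from 0.273 to 0.332. With only control replicate 1 left out, 3 of 9 (Ripk3, Zbp1 and Gsdmd) had such a p, beside 6.97%, and 4 of 9 were higher without overlap, beside 18.9%. None was called in these fits.

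The differences were measured in whole tissue, where more cells of a type and more RNA per cell cannot be told apart. Macrophage and monocyte markers were higher in deficient samples for 14 of 14 genes, beside 5985 of 10490 over all genes, with means over the list of 8.30 to 9.66 in deficient and 7.47 to 8.01 in control samples. Of the 14, 8 had an unadjusted p under 0.05, beside 5.1% of all genes higher at that p. One of them, Itgam, the integrin CD11b, was under log2 4 on all 3 control arrays, so it passed the filter through the deficient arrays alone and could only be higher. Neutrophil markers reached the test for 3 of 10 genes, with means of 6.15 to 11.13 in deficient and 3.70 to 6.77 in control samples, which overlap. One of these 3, Il1r2, was also under log2 4 on all control arrays and could only be higher. The neutrophil markers Cxcr2, Camp and Ngp were under log2 4 on every array. Fibroblast markers were higher for 5 of 5 genes with a median of 0.53, while T and NK cell markers were higher for 0 of 4 and B and plasma cell markers for 0 of 2. The group means of the myeloid markers were higher in deficient samples, as were those of Ripk3 and Zbp1, and the part of these cells in the differences was not tested. The macrophage mean was 8.89, 9.66 and 8.30 on the deficient arrays and 7.47, 7.71 and 8.01 on the control arrays. The brighter Zbp1 probe set had the opposite order in each group, but the other Zbp1 probe set did not. In each group the array with small intestine genes had the lowest macrophage mean and the highest value of the brighter Zbp1 probe set. Ripk3 was highest on deficient replicate 2, as was the macrophage mean, and among controls it had the opposite order.

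**Figure D3:**
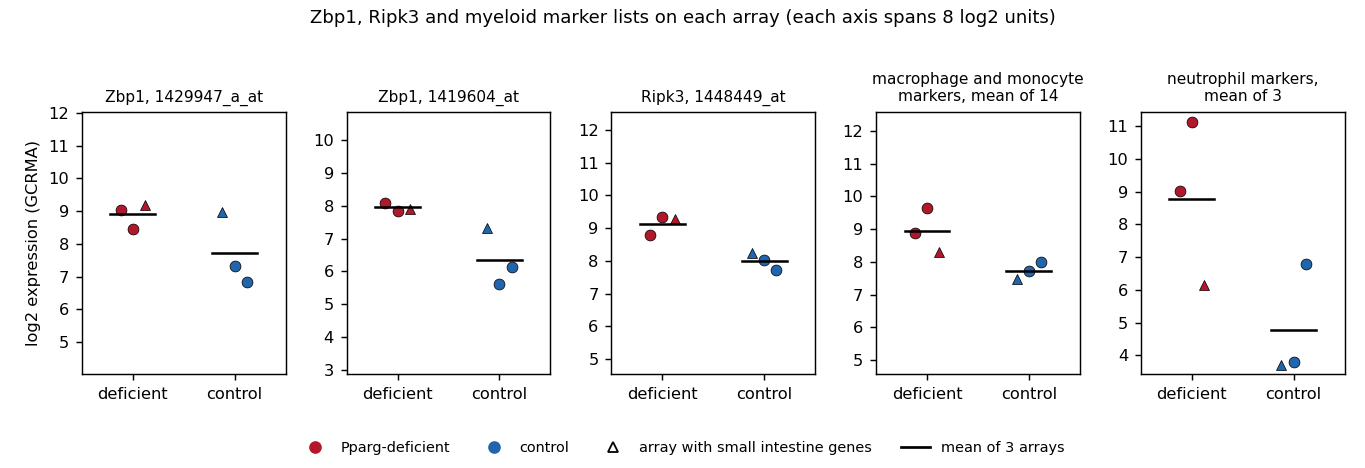
Log2 expression of both Zbp1 probe sets and of Ripk3, and the mean log2 level of 14 macrophage and monocyte markers and of 3 neutrophil markers, on the 3 deficient and 3 control arrays (points, with the mean of 3 as a line; triangles, arrays with small intestine genes). Each axis spans 8 log2 units. The macrophage means lie at 8.30 to 9.66 in deficient and 7.47 to 8.01 in control samples without overlap. Itgam, among the 14, and Il1r2, among the 3, passed the filter through the deficient arrays alone and could only be higher.

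Genes that act around these components were read from 5 further lists. Over all genes tested 5985 of 10490 were higher, 5.1% at an unadjusted p under 0.05. Among interferon-linked activators 8 of 9 genes tested were higher, 4 of them at such a p, with a median of 0.28, and 0 were called. These 4 were Gbp3, Gbp7 and Gbp2, guanylate-binding proteins that break open bacteria and expose ligands for caspase-11 and AIM2, and Sting1, the adaptor of cytosolic DNA sensing. Gbp2 read 11.26, 10.77 and 9.22 on the deficient arrays, against 8.89, 7.72 and 7.84 on the control arrays, a log2 difference of 2.27 with a limma adjusted p of 0.659. It differed by 3.24 among the 4 arrays without small intestine genes and by 0.33 between the others. Gbp3 was higher by 1.57, Sting1 by 1.38 and Gbp7 by 1.31. Among the 4 arrays without small intestine genes they differed by 2.01, 1.74 and 1.75, in that order. Between the 2 arrays with those genes they differed by 0.68, 0.64 and 0.43. The transcription factor Irf1 differed by 0.28. Adar, 1 of the 8 higher genes of this list, differed by 0.02 and is not itself an activator.

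Among death receptor and RIPK1 complex genes 16 of 20 were higher, 3 at an unadjusted p under 0.05 beside 5.1% of all genes, with a median of 0.33 and 0 called. Ripk1 itself had no probe set assigned to it alone and is not among them. Tnfaip3, the ubiquitin-editing brake A20 that limits NF-kappaB signalling and necroptosis, read 7.98, 8.85 and 8.18 on the deficient arrays, against 7.51, 6.66 and 6.99 on the control arrays. Its log2 difference was 1.29 ± 0.33 (standard error), with a limma adjusted p of 0.659. Birc3, a ubiquitin ligase acting on RIPK1, was higher by 0.76, Pgam5, a mitochondrial phosphatase, by 0.53 and Sharpin, a subunit of the linear ubiquitin ligase, by 0.40. Groups did not overlap for these 4 genes of the 20, beside 9.36% of all genes with deficient above control. The adaptor Fadd, which brings caspase-8 to RIPK1, differed by -0.10, and Cflar, the caspase-8 partner cFLIP, by 0.35, both with overlapping groups.

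Il18 and Il1b encode the cytokines that caspase-1 matures. Il18 read 11.48, 10.78 and 10.65 on the deficient arrays, against 9.31, 9.62 and 10.28 on the control arrays, a log2 difference of 1.23 with a limma adjusted p of 0.659. Every deficient Il18 value lay above every control value, beside 9.36% of all genes with deficient above control. The Il18 difference was 1.18 among the 4 arrays of colonic profile and 1.34 between the other 2. Il1b read 8.12, 11.07 and 4.74 on the deficient arrays, against 4.32, 4.33 and 6.83 on the control arrays. Its difference of 2.82 had a standard error of 1.67, and the groups overlapped. Txnip, an activator of NLRP3 under oxidative stress, differed by -1.07, and Ninj1, which ruptures the membrane late in lytic death, by 0.66. In that list of cofactors and substrates 8 of 12 were higher, with a median of 0.23. At an unadjusted limma p under 0.05, 1 of the 12 was higher, near the 5.1% of all genes. Il18 was that gene, and also the only 1 of the 12 whose groups did not overlap, near the background as well.

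Of the other inflammasome sensors 2 of 5 tested were higher, with a median of -0.44 and 0 at an unadjusted p under 0.05. Nlrp6, a sensor of the intestinal epithelium, read 9.34, 7.25 and 8.34 on the deficient arrays, against 9.14, 9.33 and 9.09 on the control arrays, a log2 difference of -0.88. Naip6 and Naip5, receptors of the NAIP family that detects bacterial flagellin and secretion systems, differed by -0.95 and -0.44, and Nlrp9b by 0.71. Nlrp9b was the only 1 of the 5 whose groups did not overlap, beside 9.36% of all genes with deficient above control. Apoptotic caspases and BCL2 family genes had a median of 0.10 over 14 genes, of which 10 were higher and 0 had an unadjusted p under 0.05. Apaf1, the apoptosome scaffold, differed by 1.73 (standard error 0.80) with overlapping groups, and Casp9, the caspase it activates, by -0.39. Casp9 was the only 1 of the 14 whose groups did not overlap, beside 435 of all 10490 genes with deficient below control. Bcl2l1 and Mcl1, survival factors, differed by 0.35 and 0.28.

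**Figure D4:**
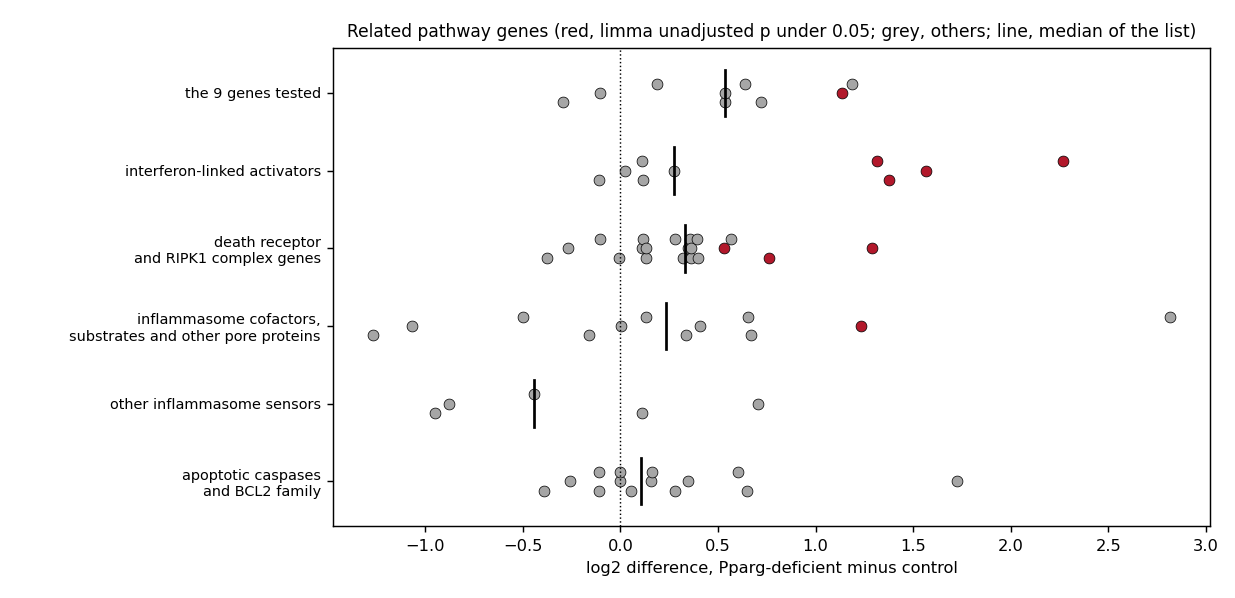
Log2 difference, Pparg-deficient minus control, for the 9 genes tested and for 5 lists of related genes. Each point is a gene, red where the unadjusted limma p was under 0.05, and the line is the median of the list. The 4 red interferon-linked activators lie between 1.31 and 2.27, and the sensors have the lowest median, -0.44.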

How the data were processed

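Total RNA from the colon of 6 mice was hybridised to 1 array each. The authors deposited log2 expression summaries per probe set, made with GCRMA per the submitters' processing notes, which models background from probe sequence, so that levels near the lowest value of 2.25 are compressed. No version or settings are given in the sources used here. That the scale is log2 was inferred from the range of values. The platform annotation named 1 gene for 34945 of 45101 probe sets, and the others were left out. The 17024 probe sets above log2 4 on at least 3 arrays were kept, and each gene was represented by its brightest kept probe set (10490 genes).

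Deficient and control samples were compared by a linear model (limma 3.58.1 under R 4.3.3; functions lmFit and eBayes; two-sided; no covariate) with Benjamini-Hochberg adjustment over all genes. The procedure was tested on simulated data. The members, lists, tests and alternatives were chosen with earlier results of these data known. Named genes were all members, up to 4 genes with the smallest p per further list, Fadd, Cflar, Il1b, Il18, Pparg, Apoa1, Car1 and a few markers. Irf1 was added after its values were seen. The 3 arrays per group limit the precision, and an exact permutation test of 3 against 3 cannot give a p under 0.1. Alternatives concerned the filter, normalization, probe set rule, variance model, floor, threshold, a replicate block and each array left out. Leaving out, or blocking for, the 2 arrays with small intestine genes was chosen after seeing the data.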

Additional observations from a re-analysis of the deposited data

How the results depend on the processing

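No gene was called under any alternative with 1 value per gene, and when every kept probe set was tested on its own 1 was called, of Uqcr10, which is none of the genes described. The median difference of the 9 genes ran from 0.30 to 0.61 when each array was left out in turn, and was 0.36 when both arrays with small intestine genes were dropped. Ripk3 kept an unadjusted p under 0.05 under every alternative that was run. The number of genes at that p was 1 over all arrays, 2 with the mean of all kept probe sets (Ripk3 and Zbp1), 4 when both arrays with small intestine genes were dropped, 4 with the tissue profile as a block, and 1 to 3 in fits without 1 array. The 3 genes came without control replicate 1 (Gsdmd, Ripk3 and Zbp1). Of all genes, 5.1% were higher at that p over all arrays and 9% when both arrays with small intestine genes were dropped. With the block the share was 8.11%, and without control replicate 1 it was 6.97%. Groups did not overlap for 1 gene over all arrays, for 2 with the mean of all kept probe sets, and for 5 when those 2 arrays were dropped. The count was 1 to 4 in fits without 1 array, the 4 without control replicate 1. The share of all genes with deficient above control also rose, from 9.36% over all arrays to 30.5% without those 2 arrays. Without control replicate 1 it was 18.9%. For the other alternatives the shares over all genes were not computed. In fits without 1 array the sign turned for 4 genes: Casp1 ran from -0.57 to 0.062, Pycard from -0.45 to 0.40, Casp8 from -0.092 to 0.58 and Aim2 from -0.087 to 0.88. The causes were not tested. With the replicate number as a block the count of calls stayed at 0 and Ripk3 had an unadjusted p of 0.0166. The labels do not say whether the numbers pair mice. Deviations of same-numbered arrays correlated at -0.54, 0.36 and -0.61 over genes. These values cannot settle it, because the 2 arrays with small intestine genes carry different numbers and correlated at 0.69. Signal near background limits Nlrp3, which had a difference of 0.04 and was not tested.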

Other observations

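Several genes of these pathways that did not pass the filter were above log2 4 on deficient replicate 2 alone, and they are named here because of their values. Mefv, which encodes the inflammasome sensor pyrin, stood at 5.48 on that array and between 2.78 and 3.88 on the other 5. Ifi204, an interferon-inducible relative of Aim2, stood at 4.84 there, Il1a at 4.49 and Tnf at 4.06, each under 3 on every other array. The neutrophil marker mean was also highest on that array, at 11.13. So were the means of macrophage and monocyte (9.66), fibroblast (12.20) and endothelial markers (6.20). The source of these values was not tested.

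Gsdme, a gasdermin opened by caspase-3, was also named after its values were seen and followed the tissue profile. It read 9.65 on deficient replicate 3 and 10.94 on control replicate 1, the arrays with small intestine genes, against 4.59 to 6.72 on the other 4. Its genotype difference over all arrays was -1.27 with a standard error of 1.71.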
